A study of Mus musculus with 7 samples.

Results

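Long non-coding RNAs are transcripts that are not translated into a long protein, and the testis is known to make more of them than most other tissues, above all in meiotic spermatocytes and round spermatids. Some act in the nucleus as scaffolds or guides for proteins, others are the host transcripts of microRNAs or small nucleolar RNAs, and for most of those named in the mouse genome no role is known. The RNAs described here are the named stand-alone long non-coding regions of an array table of mouse seminiferous tubules. To be counted, a table row of the NonCoding group needed a genomic position, a gene symbol and a span of more than 200 bp. It could share no base on its own strand with any row grouped as Coding or Complex, and on the other strand such rows had to be more than 5 kb away. Of the 7580 rows of the table, 3192 were NonCoding, 652 of these were named and long enough, and 533 met every part of the rule.

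The study inactivated Ctcf, the gene of the zinc finger protein that anchors chromatin loops, in male germ cells of mice. RNA of seminiferous tubules, freed of the tunica albuginea, was hybridised to mouse transcriptome arrays, 3 from wild-type and 4 from Ctcf-cKO mice. The Ctcf-cKO mice carried Stra8-iCre-Ctcf f/Δ, which is 1 floxed and 1 deleted allele with a Cre that the Stra8 promoter drives in spermatogonia and pre-leptotene spermatocytes, and by the study's staining Sertoli, Leydig and spermatogonial cells of these mice still had CTCF. The animals called wild-type were littermates with 2, 1 or no floxed Ctcf allele (f/f, wt/f or wt/wt), and which of these each array came from is not given in the sources used here. All mice were 12 to 15 weeks old, on a background written as C56BL/6J. No row of the table carried the symbol Ctcf, so the targeted gene itself was not checked here.

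Every value is the authors' average of the log2 signal in a genotype, and a difference is the Ctcf-cKO average minus the wild-type average. Where a pair of averages is given for a member, wild-type comes first. The table gives no value of a single array, so no error was computed for any difference. The authors' own test columns were not used, and all that follows is description. It also lists only rows that passed the authors' ANOVA and differ by a linear fold of at least 2, the smallest difference being 1.00 in size. The size of a change was thus chosen in advance while its direction was not.

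Named stand-alone long non-coding RNAs were mostly lower in Ctcf-cKO tubules. Of the 533 members 486 were lower and 47 were higher, which is 91.2% and 8.82%. Among all rows listed, 64.9% were lower and 35.1% higher. The lower share was 75.2% among the 1540 stand-alone non-coding rows without a symbol and 62.1% among Coding and Complex rows with a position. It was 85.7% of 119 rows that were named and long enough but not stand-alone, and 85.0% of 226 antisense and divergent non-coding rows, so a high lower share was not confined to the members. In contrast, 21.5% of 522 long non-coding rows that overlapped a coding row on their strand and 39.1% of Pseudogene rows were lower. The median difference over the members was -1.28, with quartiles of -1.47 and -1.11, and over all rows it was -1.15. With the median of all rows taken off every row and the fold limit kept, 2 members were lower and 47 higher. That split rests on a table without unchanged rows. Lower members had a median difference of -1.31 and higher members of 1.17. In bulk tissue, fewer cells of a type and less RNA per cell cannot be told apart, and this holds for each difference below.

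Most of these changes were moderate. A linear fold between 2 and 2.5 was found for 282 members, between 2.5 and 3 for 155, between 3 and 4 for 87, and of 4 or more for 9. Past a linear fold of 3 there were 88 lower members, 16.5% of all 533, where 12.5% of all table rows, 19.1% of NonCoding rows and 18.6% of unnamed stand-alone rows were lower by that much. Among lower rows alone the share past this fold was 18.1% for the members, 27.0% for NonCoding, 24.7% for unnamed stand-alone, 12.6% for Coding and Complex and 19.2% for all rows. On the other side 8 of the 533 were higher by more than 3 times, where 8.40% of all rows were. Members were not confined to faint signals, since 521 had an average of at least 6 in either genotype. The wild-type averages of the lower members ran from 4.58 to 11.16 with a median of 7.75, and their Ctcf-cKO averages had a median of 6.46. For the higher members the medians were 6.55 and 7.72.

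The lowest difference was that of 1700017L05Rik, a RIKEN testis clone on chromosome 5, whose average was 8.57 in wild-type against 6.16 in Ctcf-cKO, which is -2.41, a linear fold of 5.31. Gm10536 followed with 7.44 and 5.19, a difference of -2.25. 4930433E05Rik went from 6.08 to 3.97 and Gm14218 from 6.58 to 4.49, with differences of -2.11 and -2.09. These 4 were the lower members with a linear fold of 4 or more. The next 8 lay close together, from -1.99 for Gm16577 through Gm12374, 4930440C22Rik, 4930435C17Rik, AY702103, Gm12462 and Gm26738 to -1.90 for Gm568. Their spans differed widely, from 601 bases for Gm26738 to 83113 bases for Gm12374.

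Among the lower members, those with the highest averages kept a strong signal in the mutant. 1700008K24Rik had 11.16 and 9.96, 4930449C09Rik had 11.06 and 9.91, and 4933406F09Rik had 11.02 and 9.36. Gm14144 went from 11.00 to 9.44, a difference of -1.56. For Astx2, of a gene family amplified on the X chromosome and transcribed during spermatogenesis, the averages were 10.87 and 9.73.

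Many symbols record how a transcript was first found, and the members, classed by the first symbol of their row, differed by symbol. RIKEN clones whose number belongs to the adult testis libraries made up 277 members, and 276 of them were lower, with a median difference of -1.32 and a lowest value of -2.41. The exception was 1700084F23Rik, with 5.36 and 6.37. RIKEN clones of other libraries were divided, with 13 lower and 12 higher of 25. Of 149 predicted genes named Gm, 133 were lower and 16 higher, and the 2 extremes of their differences were -2.25 and 2.71. LOC symbols gave 11 lower and 2 higher of 13. A further 13 members, all lower, carried such a clone number as a later symbol, among them Mir468, Slfn5os and Crnde. Of the 243 members with no testis clone among their symbols, 197 were lower, 81.1%.

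Symbols that end in os mark a transcript from the opposite strand of a protein-coding gene. There were 21 members with such a symbol, 11 as the first and 10 as a later symbol. All of them were lower, with differences from -1.53 to -1.01, where 91.2% of all members were lower. Several, among them Slfn5os, Sox5os3 and Lyzl4os, also carry a testis clone number, so this class overlaps that of the testis clones. Slfn5os, which runs against the Schlafen gene Slfn5, had 8.68 and 7.15. Sox5os3, against the transcription factor gene Sox5, had 8.01 and 6.53. Lyzl4os, against the sperm lysozyme-like gene Lyzl4, had 8.03 and 6.68, and Il1bos, against the interleukin gene Il1b, had 6.46 and 5.30. Their protein-coding partners have no row within 5 kb, because the rule left out members with a changed coding row so near. Med9os had 8.40 and 7.16, a difference of -1.24.

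The sex chromosomes carried 42 members, 20 on the X and 22 on the Y. All 22 on the Y were lower, with a median difference of -1.07, smaller in size than the median of all rows, -1.15. They came from multicopy families, so their rows were not independent measurements: 10 distinct sets of values stood behind the 22 rows. Orly, a transcript made of rearranged pieces of spermatid genes of the Y, had 15 rows, all but 1 of them on the Y. Those rows ranged from -1.08 to -1.03 and held 7 distinct sets of values, of which 7 rows shared averages of 7.67 and 6.63. With the median of all rows taken off, every Orly row came to lie above 0. This holds by construction, as each Orly difference was smaller in size than that median. The median comes from a table without unchanged rows, so this does not show that Orly was higher. The 5 rows of Gm20857 and Gm20858 had the same averages of 10.34 and 9.10. The 3 rows of 1700040F15Rik differed by -1.39, -1.27 and -1.25. On the X the Astx family had 11 rows of nearly equal span, 2884 to 2887 bases, with differences from -1.37 to -1.14. Astx4a, Astx4b, Astx4c and Astx4d shared averages of 9.85 and 8.48, and Astx1a, Astx1b and Astx1c shared 10.42 and 9.14. A probe that matches several copies cannot tell which copy gave the signal. Over all 533 members, 23 had averages and a number of probes equal to those of another member.

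The X chromosome also held 4 of the higher members. Kantr, a transcript from beside the histone demethylase gene Kdm5c, had 6.31 and 7.75, a difference of 1.44. Gpc4 had 6.64 and 8.20, G530011O06Rik 5.09 and 6.36, and Mir1906-2 6.03 and 7.12. On the autosomes chromosome 2 had the most members, 41, of which 39 were lower, and also the most NonCoding rows, 252. Chromosomes 5, 8 and 17 had no higher member among 34, 19 and 13, where 8.82% of all members were higher.

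The 47 higher members included RNAs of nuclear bodies. Neat1, the scaffold of paraspeckles, had 8.64 and 11.11, a difference of 2.47 and a linear fold of 5.54. Malat1, which gathers in nuclear speckles and is abundant in nearly every cell type, had 11.69 and 12.73, a difference of 1.04. Both lie on the minus strand of chromosome 19, and were read by 243 and 423 probes. Gm20417, on the plus strand opposite Malat1, had 7.62 and 8.92, a difference of 1.30. Of the 6 nuclear RNAs looked for, these 2 had rows. None of the 9 imprinted RNAs looked for and none of the 5 RNAs of X inactivation, Xist among them, had a row, which says only that they did not pass the limits of the table.

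The highest difference was that of Gm3601, from 4.85 to 7.56, 2.71, a linear fold of 6.54. A530020G20Rik followed Neat1 with 6.89 and 9.12, a difference of 2.23. E330027M22Rik had 7.08 and 9.12, a difference of 2.04. Gm27031 and Gm13659 differed by 1.80 and 1.78, A830008E24Rik by 1.54 and AU020206 by 1.53. Among the higher members with the strongest signal were Rn4.5s, with 10.78 and 11.84, and Gm12840, with 10.17 and 11.33.

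Host transcripts and rows named for microRNAs were the symbol class in which higher members outnumbered lower ones, with 6 higher and 3 lower of 9. A row of this kind measures the longer RNA around a hairpin and not the mature microRNA. Mir202, named for a microRNA known mainly from gonads, had 7.04 and 8.66, a difference of 1.62. Mir468 went the other way, from 9.47 to 7.72, a difference of -1.75, and its span of 18368 bases held a second hairpin. Mir1899 had 7.12 and 5.59, and Mir7218 had 8.17 and 6.99. The host of the let-7a-2, miR-100 and miR-125b-1 cluster appeared in a pair of overlapping rows, 2610203C20Rik with 5.36 and 6.57 and Mir100 with 5.83 and 6.97, both higher. Mir125b-2, from the related cluster on chromosome 16, had a wild-type average of 3.96, a faint signal, and a difference of 1.04. Snhg18, a host of small nucleolar RNA, had 6.29 and 7.54, and Mir143hg, a transcript known from smooth muscle, had 6.75 and 7.76.

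In all, 8 members contained a RefSeq microRNA on their own strand, 3 of them lower and 5 higher. RefSeq as used here lists 17 distinct mature sequences with 17 distinct seeds for these, and for let-7a-2 only the 3p arm. The mature sequences that identify these hosts are printed from RefSeq, build GRCm38.p6, with bases 2 to 8, the seed, in capitals. From higher members:
miR-202-5p (chr7:139957732-139957752, minus strand): uUCCUAUGcauauacuucuuu
miR-202-3p (chr7:139957695-139957716, minus strand): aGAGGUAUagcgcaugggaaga
miR-7686-5p (chr7:139957598-139957622, minus strand): cCUUCCACuggaccuggggcugggc
miR-100-5p (chr9:41531437-41531458, plus strand): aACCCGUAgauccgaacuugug
let-7a-2-3p (chr9:41536777-41536797, plus strand): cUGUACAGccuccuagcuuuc
miR-125b-5p (chr9:41581940-41581961, plus strand): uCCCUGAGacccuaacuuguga
miR-125b-5p (chr16:77646279-77646300, plus strand): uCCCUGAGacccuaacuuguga
miR-1906 (chrX:88759485-88759506, minus strand): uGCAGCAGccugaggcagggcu
From lower members:
miR-468-5p (chr6:81896629-81896655, minus strand): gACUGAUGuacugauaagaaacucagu
miR-7232-5p (chr6:81895640-81895663, minus strand): uACAUGGAugauuguuuuuccaag
miR-1899 (chr9:8246796-8246817, plus strand): aGCGAUGGccgaaucugcuucc
miR-7218-5p (chr17:27358097-27358117, plus strand): uGCAGGGUuuaguguagaggg
The sequence of miR-125b-5p is the same from both of its genes, and both host rows were higher in Ctcf-cKO, by 1.21 and 1.04. On the opposite strand of a further lower member, Gm26936, with 6.56 and 5.01, lie the genes of miR-181a and miR-181b, whose 5′ products share the seed ACAUUCA.

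The RefSeq tables of the same assembly were used to check how far the label non-coding holds. A gene of the same symbol, identifier or older symbol overlapped 403 of the 533 members, 75.6%. It is a lncRNA for 373 of these, 353 lower and 20 higher. Other non-coding types were 7 microRNAs, 3 genes of type misc_RNA, 1 antisense RNA and 1 rRNA. There were also 2 pseudogenes, 1 transcribed pseudogene and 1 pseudogene of a non-coding RNA. The gene is protein coding for 14. In 9 of the 14 the coding gene is on the member's own strand, so the signal of these rows and of the coding transcript cannot be told apart. Fads2, a fatty acid desaturase, had a member of 386 bases with 10.20 and 12.37, lying 85 bases from the coding Fads2 row, whose difference was 2.22. Gpc4, a heparan sulfate proteoglycan, had a member 346 bases from its coding row, with differences of 1.56 and 1.82. Also called protein coding were 1810058I24Rik, with 6.80 and 8.19, 4930558C23Rik, with 9.88 and 8.38, 1810020O05Rik, with 8.90 and 7.40, 4933424G06Rik, with 9.49 and 8.04, and Zbtb8b, with 6.17 and 7.30. Scml1, of the Polycomb group, differed by -1.20 and Gm16462, in the cilia gene Cfap47, by -1.14. Gm16541, Agpat9 and Zfp456 run against R3hcc1l, Gpat3 and Zfp456 on the other strand, with differences of -1.62, -1.28 and -1.37, although Agpat9 also overlaps Abraxas1 on its own strand. Hist1h4b, with 5.77 and 4.62, runs against the histone gene H4c2. For 31 members the symbol belonged to a gene elsewhere. Tuba1c is such a case, as its row of 221 bases lies on chromosome 13 away from the tubulin gene and had 11.68 and 12.73.

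Stand-alone here means apart from the Coding and Complex rows of the table, not apart from all genes or from each other. A RefSeq protein-coding gene overlapped 185 members, 34.7%, which were 35.0% of the lower and 31.9% of the higher ones. The gene was on the opposite strand for 114 lower and 4 higher members and on the same strand for 20 lower and 9 higher. For 36 and 2 the strand is not given, and 91.2% of all members were lower. The same-strand members include the 9 whose own RefSeq gene is coding on that strand, 5 lower and 4 higher. A link between strand and direction was not tested. The start of a protein-coding gene lay within 1000 bases upstream on the opposite strand, the layout of a divergent promoter, for 35 members. Of these 32 were lower and 3 higher, a split close to that of all members. 1700016L04Rik, opposite the endosomal sorting gene Vta1, had 7.88 and 6.12. Gm26799, opposite the repair gene Rad18, had 8.65 and 7.23, and Gm12204, opposite the ubiquitin-conjugating enzyme gene Ube2b, had 8.78 and 7.42. 1700018A04Rik lay opposite the forkhead gene Foxf2. Snhg18, opposite the semaphorin gene Sema5a, was higher.

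The nearest Coding or Complex row of the table was set beside each member. The median distance was 257017 bases, and this row was lower for 290 members and higher for 243. The neighbour had the sign of the member for 293, 55.0%. Of 24 members within 10 kb, 20 had the sign of the neighbour, 83.3%, and the share was 65.2% of 66 members between 10 and 50 kb, 54.4% of 171 between 50 and 250 kb, and 50.4% of 272 farther away. As most members were lower, the shares past 10 kb largely follow how often the neighbour was lower, which it was for 43, 94 and 136 members. Within 10 kb the neighbour was lower for 17 of 24 members, 70.8%, less than the 83.3% that shared the sign. There it was lower for 15 of 17 lower members and for 2 of 7 higher ones. For the higher members alone the sign was the same for 5 of 7, 4 of 8, 6 of 13 and 10 of 19. Among the 20 nearest neighbours on the same strand within 10 kb, 17 shared the sign. For the members Fads2 and Gpc4 the neighbour is the coding row of the same gene, and both count here as a shared sign. The part of shared transcripts in the other pairs was not tested. Across 525 loci, formed by joining members of one strand within 50 kb, the difference of the member and that of the neighbour had a Pearson r of 0.08 and a Spearman rho of 0.07. These loci share the 7 arrays and are no replicates of each other.

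Some genes known from somatic cells of the testis were the nearest row of members of both directions. The pairs given here are examples chosen after their values were seen, and several of them lie far apart. How often such genes were neighbours was not counted, so a link between them and the members was not tested. Sox9, the Sertoli cell transcription factor, with a difference of 1.62, was the nearest row of the higher member 2610035D17Rik at 256124 bases. It was also that of the lower members 1700012H19Rik, at 35203 bases with -1.33, and 4933434M16Rik, at 37394 bases with -1.20. The lower members Gm17232, 4930423D24Rik and 4933400L20Rik, with -1.18, -1.29 and -1.81, had the higher rows Gata4, Lyz2 and Cdh5 as their nearest. LOC624549, with 5.27 and 6.35, lay 13925 bases from Nr2f2, a nuclear receptor of interstitial cells, which differed by 1.60. A530020G20Rik lay 73406 bases from the calponin gene Cnn3, which differed by 2.52, and Kantr 9357 bases from Tspyl2, which differed by 1.89. BC023202, with 6.92 and 8.31, lay 356 bases from Mboat2, which differed by 1.24. Among lower members, 1700016L04Rik lay 1202 bases from the neuromedin B receptor gene Nmbr, which differed by -1.73. 9330102E08Rik, with 9.83 and 8.32, lay 2541 bases from Gm10010, which differed by -1.34.

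Close pairs of opposite sign were fewer. 1700074H08Rik had 8.18 and 6.28, while Hmgcs1, of cholesterol synthesis, 8864 bases away, differed by 1.63. 1700026D11Rik differed by -1.59 and Gpcpd1, 5025 bases away, by 1.05. 4930525D18Rik differed by -1.69 and the collagen-modifying Crtap, 10504 bases away, by 1.73. 2010203P06Rik differed by -1.10 and Tgfbi by 1.19, and Gm16230 by -1.18 and Stat6 by 1.14. Of the higher members, LOC102632068 differed by 1.01 and Ero1lb, 3167 bases away, by -1.14. 1810058I24Rik differed by 1.39 and the nucleoporin gene Nup205 by -1.17. Mir202 lay 14264 bases from 6430531B16Rik, which differed by -1.21, Gm20186 17820 bases from Ankrd7, which differed by -1.88, and Gm21781 32873 bases from 1700052N19Rik, which differed by -1.03.

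Members seldom lay together. Only 8 loci held more than 1 member on a strand within 50 kb, each of them with 2, and in every one both members had the same sign, 6 times lower and 2 times higher. As 91.2% of all members were lower, a shared sign is common among pairs. The higher loci were Malat1 with Neat1 and 2610203C20Rik with Mir100. Among the lower ones, 1700094C10Rik and 1700112M01Rik differed by -1.60 and -1.01, 4930522N08Rik and Gm16226 by -1.64 and -1.31, the 2 rows of Gm3120 by -1.47 and -1.35, and 1700006J14Rik and 9230105E05Rik by -1.17 and -1.01. The rows of Gm3120 overlapped each other, as did those of 4930522N08Rik and Gm16226. Crnde, first described in colorectal tumours, differed by -1.28 and shared its locus with Gm21817, at -1.01. Gm26843 and 4930488L21Rik differed by -1.37 and -1.89.

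Markers of the cells of a testis were read from the other rows of the same table, and 34 of 58 had a row. In all lists of somatic cells every row was higher in Ctcf-cKO. Of 6 Leydig cell markers 5 were higher, with a median of 2.15, list means of 9.30 and 11.40 and Cyp17a1 as the strongest row. Of 8 Sertoli markers 6 were higher, with a median of 1.60, means of 8.43 and 10.08 and Clu strongest. For 3 of 6 macrophage markers the median was 1.81 (means 6.81 and 8.72, Lyz2 strongest), for 2 of 4 peritubular myoid markers 1.25 (8.77 and 10.01, Acta2) and for 2 of 5 endothelial markers 1.12 (6.55 and 7.68, Cdh5).

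The lists of meiotic and later germ cells went the way of most members. Of 8 markers of primary spermatocytes 7 were lower, with a median of -1.31, means of 9.41 and 8.12 and Piwil1 strongest. Of 8 markers of round spermatids 6 were lower, with a median of -1.32, means of 10.12 and 8.82 and Acr strongest, and of 7 of elongating spermatids 2, with a median of -1.03, means of 10.44 and 9.40 and Akap4 strongest. Of 6 spermatogonial markers only Kit had a row, higher by 2.28, with 7.81 and 10.09. No row was listed for Insl3, Amh, Rhox5, Des, Cnn1, Adgre1, Cd14, Cd163, Pecam1, Vwf, Tek, Zbtb16, Gfra1, Dazl, Uchl1, Stra8, Sycp3, Tnp1, Tnp2, Prm1, Prm2, Odf1, Oaz3 and Smcp. Of these, the study reports Prm1 and Prm2 as not down-regulated and Stra8 and Sycp3 as not affected. Each list was thus read only from rows past the limits of the table, and the lists do not give the level of a cell type as a whole. The part of the cells these markers stand for in the differences of the members was not tested.

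Promoter sequence was not used in choosing the members. RefSeq gave a transcription start on the strand of the member and within 1000 bases of its 5′ end for 274 promoters, 258 of lower and 16 of higher members, each running from 250 bases before to 50 after the start. Motifs were sought on both strands, and the comparison counts 1 promoter for each of 9533 lncRNA and 17491 protein-coding genes. The lower members had a median GC content of 48.7% and 4 CpG pairs, as had lncRNA genes in general, at 48.7% and 4. Protein-coding genes had 56.3% and 13. The higher members had 52.7% and 10.

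The MYB core CNGTTG is the site of a factor family that includes the spermatocyte regulator MYBL1. It was in 50.4% of the promoters of lower members and in 6 of 16 of higher ones, 37.5%. Descriptive 95% intervals, which treat promoters as independent, were 44.1% to 56.6% and 15.2% to 64.6%, so these 2 shares are not set apart. The core was in 36.9% of lncRNA promoters and 35.1% of the promoters of all genes. GTTGCCA, part of the motif that RFX factors bind, was in 10.1% of lower members, in 1 of 16 higher ones, in 4.95% of lncRNA promoters and in 4.46% of all. The MYB core and this motif share the letters GTTG, so a stretch can hold both. The full cyclic AMP response element TGACGTCA, which CREM binds in spermatids, was in 9 of the 258 lower members, 3.49%. It was in 1.02% of lncRNA, 2.34% of protein-coding and 1.88% of all promoters. The descriptive interval of the 3.49%, from 1.61% to 6.52%, holds the shares of protein-coding and of all promoters. The shorter form TGACG, contained in that element, was in 22.5% of lower members and in 5 of 16 higher ones, 31.2%. It was in 15.8% of lncRNA promoters and in 21.0% of all. The TATA box TATAAA was in 12.4% of lower members, in 3 of 16 higher ones, 18.8%, in 15.7% of lncRNA promoters and in 14.2% of all. The CTCF consensus, searched by its name, was in no promoter of a lower member, in 1 of the 16 higher ones, in 0.566% of lncRNA promoters and in 0.551% of all. A match describes letters in a window and not binding. The comparison promoters were not limited to genes active in the testis, so a gap to them need not be particular to the members.

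The 9 matches to the cyclic AMP response element are shown with 10 bases on either side and the element in capitals, so that their surroundings can be read. All 9 members were lower, with differences from -1.73 to -1.18, but so were 258 of the 274 with a promoter. They lay between 17 and 126 bases before the start.
1700041M19Rik (chr16:77010895-77010922, minus strand): agagattctaTGACGTCAtagtgttgct
4930447M23Rik (chr2:19344217-19344244, plus strand): catggcctgcTGACGTCAaaatgaggcc
4930471M09Rik (chr6:91440929-91440956, minus strand): cgcctcaggaTGACGTCAtgtaaccgcg
4931415C17Rik (chr8:12672400-12672427, plus strand): ctctgcccctTGACGTCAccaggaggta
4933417D19Rik (chr8:123235048-123235075, plus strand): acgtgcattcTGACGTCAttgccttccc
Gm11335 (chr13:23530964-23530991, minus strand): caatgcctagTGACGTCAccaacgttcg
Gm11608 (chr1:63273200-63273227, minus strand): actgcagctcTGACGTCAgcgaaggtgc
LOC102633010 (chr2:73561050-73561077, plus strand): cagctccttgTGACGTCAgcttttagcc
Sox5os3 (chr6:144672808-144672835, plus strand): ggctggggtaTGACGTCAgcaggggctg
Of these, Gm11335 had 7.15 and 5.42, 1700041M19Rik had 8.51 and 7.03, and Gm11608, in a promoter with 48 CpG pairs, had 8.88 and 7.38.

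Whole promoters are given for 4 further members. That of 1700030C14Rik, with 8.96 and 7.80, held 2 copies of GTTGCCA or its reverse complement, in capitals. That of 1700084F23Rik, the higher RIKEN testis clone, held 1 copy, so the motif was found in both directions of change. The promoter of Gm14144, among the strongest lower members, held 4 matches to CNGTTG, in capitals. Gm20559, with 5.41 and 6.56, had the promoter with the CTCF consensus, in capitals.
1700030C14Rik (chr2:152654281-152654580, minus strand): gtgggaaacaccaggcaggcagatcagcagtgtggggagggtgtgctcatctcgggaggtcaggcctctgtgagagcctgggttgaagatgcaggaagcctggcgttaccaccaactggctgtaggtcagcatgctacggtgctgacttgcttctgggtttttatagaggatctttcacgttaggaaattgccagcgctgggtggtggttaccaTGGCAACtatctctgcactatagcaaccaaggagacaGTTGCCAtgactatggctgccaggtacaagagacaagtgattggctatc
1700084F23Rik (chr13:70028299-70028598, minus strand): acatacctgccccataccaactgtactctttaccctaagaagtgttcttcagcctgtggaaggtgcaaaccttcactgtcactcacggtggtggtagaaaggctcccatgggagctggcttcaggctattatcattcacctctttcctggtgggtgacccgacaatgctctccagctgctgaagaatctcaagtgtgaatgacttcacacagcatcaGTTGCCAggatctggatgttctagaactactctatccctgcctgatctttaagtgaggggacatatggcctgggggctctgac
Gm14144 (chr2:151278815-151279114, minus strand): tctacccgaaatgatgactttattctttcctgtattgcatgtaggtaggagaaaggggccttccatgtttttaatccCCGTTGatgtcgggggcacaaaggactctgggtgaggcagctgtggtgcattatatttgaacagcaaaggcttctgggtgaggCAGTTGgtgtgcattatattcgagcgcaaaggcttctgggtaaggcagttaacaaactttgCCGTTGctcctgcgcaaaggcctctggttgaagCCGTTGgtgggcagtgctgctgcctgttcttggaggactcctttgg
Gm20559 (chr6:3346089-3346388, minus strand): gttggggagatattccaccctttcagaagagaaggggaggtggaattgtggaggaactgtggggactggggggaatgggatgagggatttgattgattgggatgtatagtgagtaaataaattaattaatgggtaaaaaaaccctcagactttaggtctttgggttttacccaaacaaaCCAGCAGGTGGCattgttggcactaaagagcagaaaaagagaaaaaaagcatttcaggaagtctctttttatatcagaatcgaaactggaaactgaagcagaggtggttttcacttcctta

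Values at the edges of the rule were as follows. The shortest member was the Tuba1c row of 221 bases, and the longest row just below the length limit was Gm22973, of 191 bases, with 8.32 and 7.30. The member nearest to a coding row of the opposite strand was 1700026D11Rik, at 5025 bases, and the nearest named row left out was Gm12898, at 4957 bases, with 6.98 and 5.83. On the same strand 1700016C19Rik passed with 58 bases to spare and had 8.95 and 7.82, while Gm26024, which overlapped a coding row by 322 bases, was left out and had 4.75 and 6.01. Nearest to the fold limit of the table stood 1700018A04Rik with 7.36 and 6.36, Gm2491 with 7.04 and 6.03, 2610035D17Rik with 6.64 and 7.64, and LOC102632068 with 5.57 and 6.58.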

How the data were processed

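Tubule RNA from 7 mice, 3 of them wild-type and 4 Ctcf-cKO, was measured on mouse transcriptome arrays. Per the submitters' processing notes, the authors used Affymetrix Expression Console 1.4.1 with RMA and Transcriptome Analysis Console 3.0, on build mm10, and deposited, for each transcript cluster, a bi-weight average of the log2 signal per genotype, written with decimal commas. The deposited table used here holds no value of a single array. Columns of the authors' own comparison, namely a fold change, an ANOVA p-value and its false discovery rate, were not used here. Only rows past a linear fold of 2 and the authors' ANOVA limit are listed, so unchanged RNAs were not analysed here.

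Differences of averages, distances between rows, symbol classes and loci were computed with Python 3.11.15, numpy 2.4.6, pandas 2.3.3 and scipy 1.17.1, and the selection rule, the joining of loci, the motif search and the median interval were tested on simulated regions. A linear model per region, as first designed, could not be fitted to group averages. Coordinates are those of the table. RefSeq genes, microRNAs and promoters of GRCm38.p6, the same assembly as mm10, were matched by symbol, identifier or older symbol, and 403 of 533 members matched at their own position.

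The rule for named genes took the 12 largest differences in each direction, members in lists of imprinted, X inactivation, nuclear, host and germ cell RNAs, the 5 highest averages per direction, the 5 loci with most members, the 2 members nearest the fold limit per direction, up to 10 members that the reference calls protein coding, and the 5 nearest to a coding row of opposite sign per direction. Other members named for their symbol family, microRNA, neighbour, partner or motif were chosen after their values were seen. The members and lists were chosen with earlier results of these data known. The list of germ cell RNAs had no member, although Tsx had a row, and Dnm3os of the host list had a row that did not meet the rule. Snhg18 and Mir143hg entered the host list by the form of their names.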

Additional observations from a re-analysis of the deposited data

How the results depend on the processing

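The 4 summary values, which are the counts of lower and of higher members, the share that was lower and the median difference, were computed again under 11 planned settings and 1 chosen after seeing the data. The planned settings were fixed before the data were read here, but the members had been chosen with earlier results of these data known. The counts stayed within 1.5 times and the share and median within descriptive 95% intervals over the members, 88.4% to 93.4% and -1.31 to -1.24, in 42 of the 48 values. These covered distinct symbols, equal values counted once, a distance of 0 or 20 kb on the opposite strand, 5 kb on either strand, a span above 1000 bp, an average of at least 6, no X or Y, no members in a protein-coding gene of the same or an unstated strand, and, chosen after seeing the data, no members whose RefSeq gene is not a lncRNA. The intervals treat the rows as independent, although all rows share the 7 arrays and 23 have values equal to another's. Most of these settings also kept nearly the same rows, so values within the intervals say little about stability. A linear fold of 3 left 88 lower and 8 higher members with a median of -1.73, by its own construction. Re-centring on the median difference of all rows, -1.15, with the fold limit of 2 kept, left 2 lower members, 47 higher ones, a lower share of 4.08% and a median of 2.32, because the table lists no row with a difference under 1.00 in size. Of 62 named members 6 changed sign on re-centring, to 0.01 for Astx2, 0.04 for 2010203P06Rik, 0.14 for 1700112M01Rik, 9230105E05Rik and Gm2491, and 0.15 for 1700018A04Rik. Of all 486 lower members 113 came to lie above 0, and 76.7% stayed below it, as did 77.0% of all lower rows. The value taken off is the median of rows cut at a linear fold of 2 and not a measured offset. Each lower row with a difference weaker than -1.15 therefore turned by construction, and the 77.0% follows from what a median is. Other members that turned and are named in the text were the 15 Orly rows, to between 0.06 and 0.11, Gm16462 to 0.01, 1700016C19Rik to 0.02 and Gm21817 to 0.14, and 9 of the 21 members with a symbol ending in os turned.

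No paired analysis was possible because the table holds group averages only. Analyses without 1 mouse at a time, with mouse number as a replicate block or with each array centred were not run, since all need single-array values. With 7 arrays the averages are of limited precision, and none has an error.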
